A study of Mus musculus with 14 samples.

Results

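Spp1, Mmp12, Gpnmb, Lgals3, Cd63, Fabp5, Apoe and Lpl are 8 of the 21138 genes counted in these cells, chosen by name as the lipid-associated macrophage genes around Spp1, and all 8 were measured. They were read in 648 single mouse cells by Smart-seq2, a plate method that sequences whole transcripts of one sorted cell. The study asks what candidate tumor-leukocyte hybrid cells in the circulation are, and it sorted cells by fluorescent markers of tumor and host. Of these cells, 539 came from 9 samples labelled Tumor (female C57BL/6J mice aged 6-8 weeks, injected with B16F10 melanoma cells carrying a fluorescent label), and they were sorted as DP (450 cells), CTC (43 cells) or WBC (46 cells) from blood or lung. The labels do not spell out DP. The controls were 1 sample each of cultured B16F10 cells, a melanoma line of C57BL/6J origin (22 cells), and of cells called CDP (18), Duplike (24), PltLike (24) and WBC (21, here naive WBC), which except for B16F10 are labelled Naive, female, C57BL/6J and 6-8 weeks of age. The labels do not define CDP, Duplike or PltLike. Nothing in the labels ties a sample to one mouse, and the spread behind a p-value may therefore be technical. A control of 1 sample was taken to vary like the other groups.

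Lipid-associated macrophages take up dying cells and lipoproteins and turn on a shared set of genes for lipid uptake, lysosomal breakdown and matrix remodelling. Spp1 encodes osteopontin, a secreted ligand of CD44 and of several integrins, and Mmp12 the macrophage elastase. Gpnmb and Cd63 encode membrane proteins of lysosomes and melanosomes, so pigment cells make them too, and Lgals3 encodes galectin-3. Fabp5 carries fatty acids inside the cell, Lpl releases fatty acids from lipoproteins, and Apoe is the lipoprotein component bound by receptors of the LDL receptor family. In the lung, resident alveolar macrophages handle surfactant lipid and make Lpl, whereas monocyte-derived macrophages are the better known source of Apoe.

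DP cells were of more than one kind, so each cell was scored by its mean log2(CPM + 1) over 12 melanocyte genes minus that over 12 pan-leukocyte genes, where CPM is a gene's count per 1000000 gene counts of that cell and 1 is the pseudocount. None of the 8 genes is in either list. Cells above 0 are called tumor-high and the others tumor-low. Of the DP cells, 172 were tumor-low (100 from lung in 7 samples and 72 from blood in 6) and 278 were tumor-high (77 from lung in 6 samples and 201 from blood in 7). The cut is a range and not a cell type, and 9 tumor-low and 4 tumor-high DP cells lay within 1 of it. CTC, B16F10, CDP, Duplike and PltLike cells were all tumor-high, although the last 3 are labelled Naive, naive WBC were all tumor-low, and 2 of the 46 WBC were tumor-high. Median depth, in Mcounts of 1000000 counts each, was 6.83 in tumor-low DP cells of lung, 7.65 in those of blood, 19.0 in tumor-high DP cells, 22.1 in CTC, 4.93 in WBC and 1.05 in naive WBC. Monocyte and macrophage markers (12 genes) summed to a median of 36848 CPM per tumor-low DP cell of lung and 33390 CPM per tumor-low DP cell of blood, against 10.4 CPM in CTC. A pair of tumor-high DP sums from lung stood apart, those of replicates 1 and 2 with 2 cells each. Their 12 melanocyte genes summed to 931 and 411 CPM, against 33979 to 55887 CPM in the other 4 sums, and their 6 fibroblast markers to 78360 and 54585 CPM.

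Promoters of 6 of the 8 genes were in the RefSeq table used (GRCm38.p6), and Fabp5 and Lpl were named only. The 250 bases before the first listed start of Spp1 and Mmp12 are shown because they share one motif. No other window of the 6 genes holds it, among them those of Cd63 and Lgals3, which also vary with Spp1 below. Gpnmb, abundant in tumor cells, is shown beside them. Capitals mark GAGGAAGT on either strand, a sequence of the kind bound by the myeloid factor PU.1, picked after these sequences had been read.
Spp1, chr5:104434861-104435110, plus strand: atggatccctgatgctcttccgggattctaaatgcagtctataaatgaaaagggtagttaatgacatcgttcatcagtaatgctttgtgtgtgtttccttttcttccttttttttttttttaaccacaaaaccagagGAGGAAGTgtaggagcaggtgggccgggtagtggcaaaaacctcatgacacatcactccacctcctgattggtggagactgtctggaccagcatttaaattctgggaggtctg
Mmp12, chr9:7344147-7344396, plus strand: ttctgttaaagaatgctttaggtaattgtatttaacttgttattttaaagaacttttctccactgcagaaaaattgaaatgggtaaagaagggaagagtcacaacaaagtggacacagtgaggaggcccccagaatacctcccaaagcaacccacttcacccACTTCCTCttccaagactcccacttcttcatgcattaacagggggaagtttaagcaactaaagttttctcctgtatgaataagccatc
Gpnmb, chr6:49036268-49036517, plus strand: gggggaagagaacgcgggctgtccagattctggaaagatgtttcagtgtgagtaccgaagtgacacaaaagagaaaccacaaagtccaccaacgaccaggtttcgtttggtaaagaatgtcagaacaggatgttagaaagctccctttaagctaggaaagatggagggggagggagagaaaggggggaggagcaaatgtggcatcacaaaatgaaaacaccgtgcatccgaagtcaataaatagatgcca
The match lay 113 to 106 bases before the start in Spp1 and 88 to 81 bases before it in Mmp12, there on the minus strand. It is in 2.44% of all 32841 promoter windows of this length. Of 3 other motifs searched on both strands, CACGTG (6.02% of windows) was in no window of the 6 genes, and TGANTCA (6.75%) and CATGTG (12.3%) were only in a second Mmp12 window. A match is a description of letters and not a measured binding site.

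**Figure D1:**
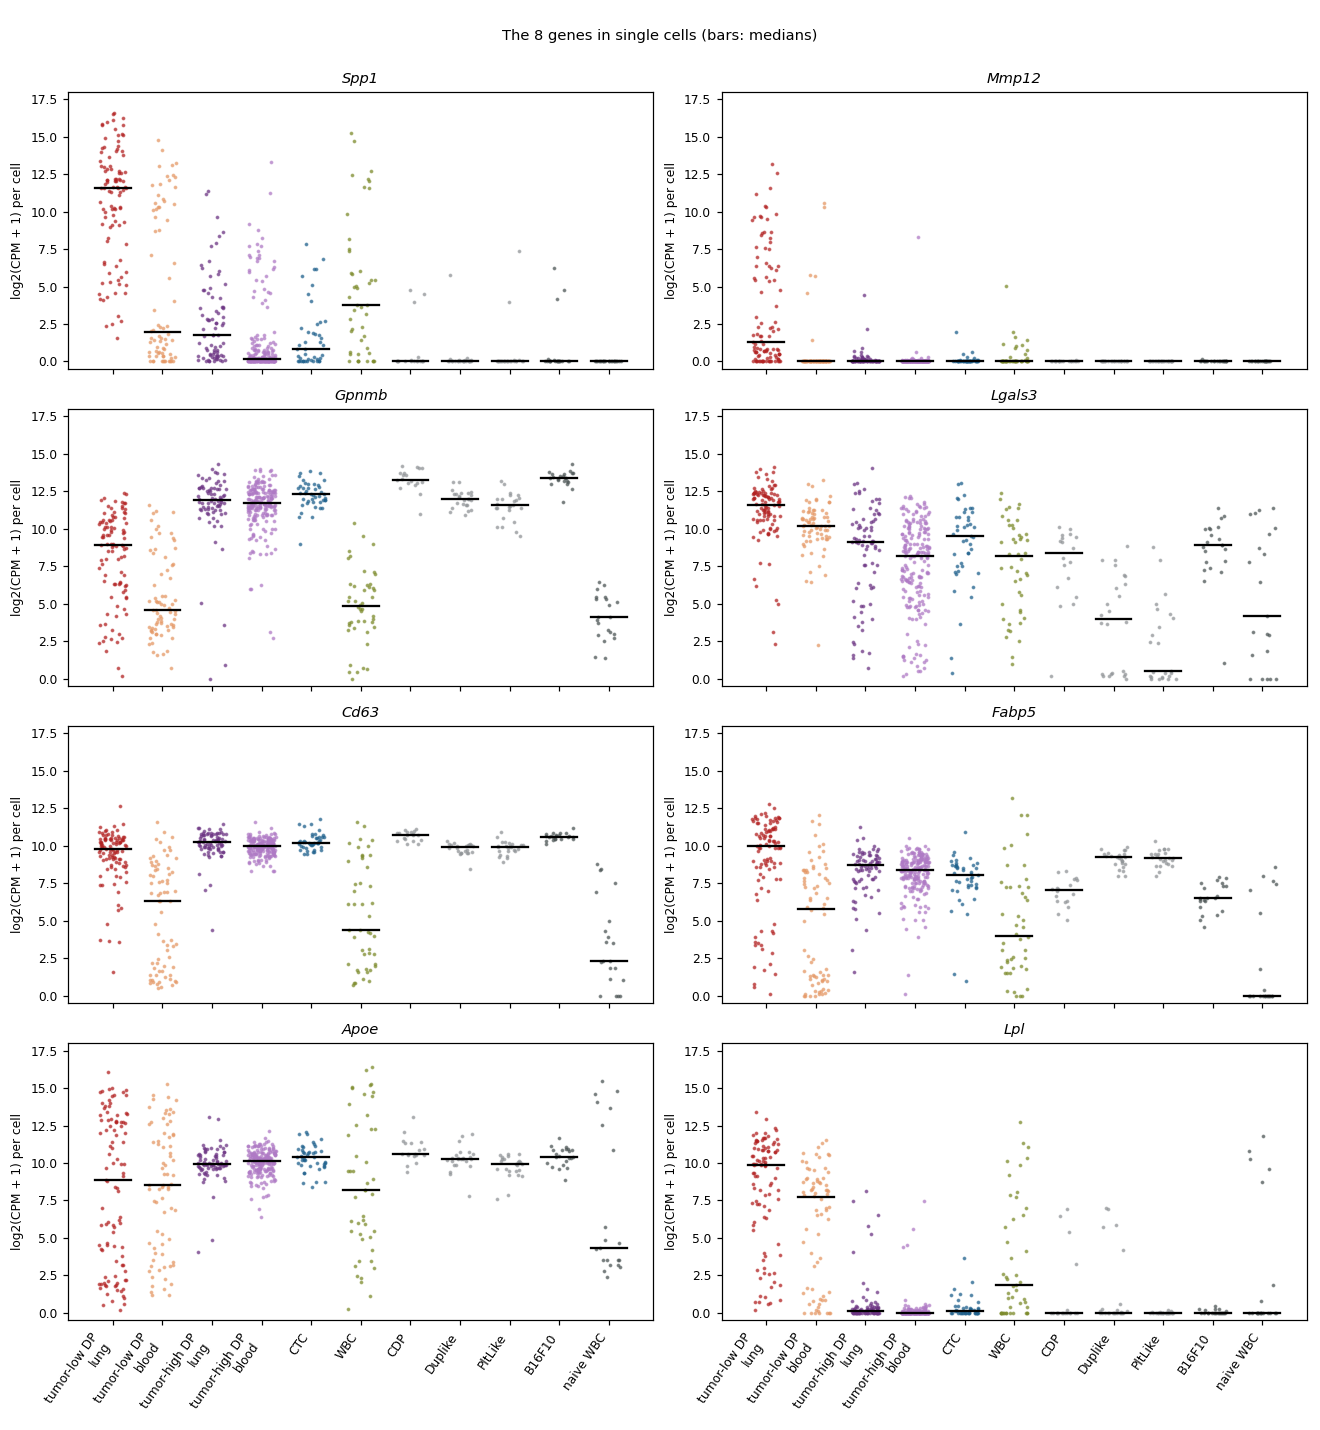
Level of each of the 8 genes in every single cell, as log2(CPM + 1) on the vertical axis, with cells grouped along the horizontal axis by sorted class, tissue and score, and bars at the medians. Spp1 and Lpl are high in tumor-low DP cells of lung (medians of 3047 and 927 CPM) and near 0 in tumor-high cells, Gpnmb runs the other way, and Apoe splits tumor-low cells into a high and a low group.

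Spp1, chromosome 5 (104435118 to 104441050, plus strand, GRCm38), was read first in tumor-low DP cells, summed per sample. Its summed level ran between 956 and 38027 CPM in lung over 7 samples, with a median of 8308 CPM, against 0.0837 to 5695 CPM in blood over 6 samples, with a median of 1432 CPM. Lung sums were the higher on average (15342 ± 14005 CPM against 1713 ± 2081 CPM, SD), and 4 of the 6 blood sums lay above the lowest lung sum, so the tissues overlapped. In sums of this kind, fewer cells of a type and less RNA per cell cannot be told apart. Per cell, 95 of 100 tumor-low DP cells of lung had at least 10 CPM of Spp1 (95%, exact 95% interval 88.7 to 98.4), against 29 of 72 in blood (40.3%, 28.9 to 52.5). After thinning every cell to 100000 counts, which left out 1 lung cell, the shares were 96% in lung and 50% in blood. At that depth a single count already reaches 10 CPM, so these are shares of cells with any count left. Intervals here cover counting error only and take cells of one sample as separate. Blood shares at 10 CPM differed by sample. They were 13 of 35 cells in replicate 7, 2 of 15 in replicate 9 and 6 of 10 in replicate 2. Replicates 6, 3 and 1 had 6 of 7, 2 of 2 and 0 of 3.

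Blood tumor-low DP cells spread widely in Spp1, with 46 of 72 at 1 CPM or more and 29 at 10 CPM or more. At 1000 CPM or more there were 65 of the 100 lung cells and 21 of the 72 blood cells, and the blood cells came from 4 samples: 11 of 35 in replicate 7, 4 of 10 in replicate 2, 4 of 7 in replicate 6 and 2 of 2 in replicate 3. Replicates 1 and 9 had none among their 3 and 15 cells. The cells split by Spp1 itself are given here as a description. Blood cells at 1000 CPM or more had medians of 440 CPM of Cd63, 299 CPM of Fabp5 and 3392 CPM of Apoe, and those below it had 9.82, 1.98 and 115 CPM, although their median depth was greater (7.96 Mcounts, against 5.22 Mcounts in the high cells). Gpnmb had medians of 34.5 and 20.4 CPM, Lgals3 had medians of 1239 and 1148 CPM, and Mmp12 had a median of 0 in each. In lung the medians of Apoe were 330 CPM in cells at 1000 CPM or more of Spp1 and 471 CPM in those below it, those of Cd63 were 1023 and 547 CPM, and those of Gpnmb were 768 and 79.0 CPM.

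Among tumor-high DP cells 4 of 278 reached 1000 CPM of Spp1, named here after their values were seen. A blood cell of replicate 2 had 10059 CPM with 10 of 12 macrophage markers at 10 CPM or more, a melanocyte list sum of 5693 CPM and a score of 1.18. A lung cell of replicate 8 (2636 CPM of Spp1) and a blood cell of replicate 5 (2366 CPM) had 5 and 4 such markers beside melanocyte sums of 49569 and 22360 CPM. The remaining one, of replicate 1 in lung (2328 CPM of Spp1), had 1 macrophage marker, 116 CPM of the melanocyte list and 48065 CPM of fibroblast markers. The medians of Spp1 were 2.45 CPM in tumor-high DP cells of lung, 0.147 CPM in those of blood and 0.808 CPM in CTC, and 8 of the 43 CTC had 10 CPM or more. WBC of both tissues together had a median of 12.4 CPM, with 25 of 46 cells at 10 CPM or more. As sums, WBC of lung held 62.0 to 9102 CPM in 3 samples and those of blood 0 to 5345 CPM in 6 samples. B16F10, CDP, Duplike, PltLike and naive WBC all had a median of 0.

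Mmp12, chromosome 9 (7344381 to 7369499, plus strand), was the lowest of the 8 per kb of exon in tumor-low DP sums of lung. Sums of tumor-low DP cells held 73.8 to 811 CPM in lung, with a median of 365 CPM, against 0 to 1185 CPM in blood, with a median of 0.618 CPM. All 7 lung sums were above 5 of the 6 blood sums, and the remaining blood sum, replicate 3 with 2 cells, was above every lung sum. The cells that carried it were few. In lung 36 of 100 tumor-low DP cells had 10 CPM or more (36%, exact interval 26.6 to 46.2) and the highest had 9126 CPM, against 5 of 72 in blood (6.94%, 2.29 to 15.5). One of 46 WBC and none of 43 CTC or 21 naive WBC reached 10 CPM, and by the limit of 3 counts that a count of 0 allows, 0 of 43 and 0 of 21 leave room for shares of up to 6.98% and 14.3%.

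Gpnmb, chromosome 6 (49036546 to 49070929, plus strand), was highest in tumor cells. Its sums were 51.2 to 1641 CPM in tumor-low DP cells of lung (median 1201 CPM), against 24.1 to 1738 CPM in those of blood (median 272 CPM). Tumor-high DP sums of blood held 2631 to 6706 CPM (median 5308 CPM), above every tumor-low sum. CTC sums held 3951, 4529, 6769, 6748 and 3514 CPM in replicates 1, 2, 3, 5 and 6, and the B16F10 sum 11401 CPM. The lung tumor-high sums ran up to 14119 CPM but were 16.2 and 0.731 CPM in the fibroblast-marker sums of replicates 1 and 2. Set against the 12 melanocyte genes of the same sum, Gpnmb amounted to 85.8% to 1246% of their level in tumor-low DP sums of lung, against 9.50% to 23.0% in CTC sums of blood and 34.0% in B16F10. In tumor-low blood sums it amounted to 8.73% to 910%, which overlaps the tumor sums. The same ratio was 22.0% in naive WBC and 0.117% to 2449% in WBC sums of lung. It is raised by selection in tumor-low cells, which were picked for a low level of these 12 genes against pan-leukocyte genes. In CPM, Gpnmb of every tumor-low lung sum was below every CTC sum. The source of Gpnmb in tumor-low cells was not tested.

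Cd63, chromosome 10 (128900989 to 128912822, plus strand), a tetraspanin of late endosomes, was present in tumor-low and tumor-high cells alike. Tumor-low DP sums held 837 to 1402 CPM in lung (median 1041 CPM), against 118 to 854 CPM in blood (median 245 CPM). One blood sum, replicate 3, lay above the lowest lung sum and the other 5 lay below all of them. Tumor-high DP sums held 233 to 2301 CPM in lung, the lowest being the fibroblast-marker sum of replicate 2, and 912 to 1273 CPM in blood. CTC sums held 961 to 1761 CPM, and the lung tumor-low sums overlapped all of these. The median per cell was 885 CPM in tumor-low DP cells of lung and 80.2 CPM in those of blood. It was 19.99 CPM in WBC of both tissues together and 4.08 CPM in naive WBC. As sums, WBC of lung held 714 to 1267 CPM in 3 samples, which overlaps the tumor-low DP sums of lung. Those of blood held 9.84 to 575 CPM. Cd63 and Fabp5 each have a processed pseudogene in the annotation (Cd63-ps and Fabp5l2), and the treatment of reads that match both copies is not given in the sources used here, so their levels are uncertain to that extent.

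Lgals3, chromosome 14 (47367751 to 47386160, plus strand), was present in nearly all tumor-low DP cells. Its sums were 2093 to 5389 CPM in lung (median 4255 CPM), against 882 to 7828 CPM in blood (median 1314 CPM), and the 2-cell sum of replicate 3 was the highest of both tissues. Per cell the median was 3117 CPM in tumor-low DP cells of lung and 1183 CPM in those of blood. It was 286 CPM in WBC of both tissues together and 16.8 CPM in naive WBC. As sums, WBC of lung held 518 to 4344 CPM in 3 samples, which overlaps the tumor-low DP sums of lung. Those of blood held 116 to 1791 CPM. Tumor-high cells varied widely, with medians of 546 CPM in DP cells of lung, 290 CPM in DP cells of blood and 742 CPM in CTC. Among the tumor-high controls it was 488 CPM in B16F10, 335 CPM in CDP, 15.1 CPM in Duplike and 0.404 CPM in PltLike, whose 24 cells had 3037 CPM of Gpnmb.

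Fabp5, chromosome 3 (10012548 to 10016607, plus strand), had sums of 243 to 2658 CPM in tumor-low DP cells of lung (median 1317 CPM), against 34.6 to 1347 CPM in those of blood (median 250 CPM). It was present in most tumor-high cells as well, with medians of 417 CPM in DP cells of lung, 335 CPM in DP cells of blood and 260 CPM in CTC, and of 89.7 CPM in B16F10. Duplike and PltLike cells had 608 and 579 CPM. WBC of both tissues together had a median of 15.2 CPM and naive WBC 0. As sums, WBC of lung held 316 to 2619 CPM in 3 samples, which overlaps the tumor-low DP sums of lung. Those of blood held 33.0 to 126 CPM in 6 samples.

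Lpl, chromosome 8 (68880491 to 68907448, plus strand), was present in tumor-low DP sums of every sample and near 0 in CTC. Tumor-low DP sums held 570 to 2201 CPM in lung (median 1082 CPM), against 95.8 to 666 CPM in blood (median 456 CPM), and only the highest blood sum reached the lowest lung sum. CTC sums held 0.138, 0.149, 1.75, 0.282 and 0.0778 CPM in replicates 1, 2, 3, 5 and 6. Tumor-high DP sums of blood stayed at 0.0202 to 0.712 CPM. In tumor-high DP sums of lung Lpl reached 71.3 CPM in replicate 1 and 179 CPM in replicate 3, both of 2 cells, and 0.186 to 2.65 CPM in the other 4. WBC sums of both tissues ran between 1.17 and 1528 CPM, so the lowest lay below the highest CTC sum. Naive WBC held 353 CPM as a sum, although 14 of the 21 cells had no count.

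Apoe, chromosome 7 (19696109 to 19699188, minus strand), was at 934 to 14648 CPM in tumor-low DP sums of lung (median 9707 CPM), against 1740 to 7192 CPM in those of blood (median 3253 CPM). The lowest sum of all was of lung (replicate 3), so the tissues overlapped in full. Tumor-high cells carried it at the median, with 977 CPM in DP cells of lung, 1146 CPM in those of blood, 1349 CPM in CTC and 1382 CPM in B16F10. The lowest tumor-high DP sum of lung held 18.8 CPM, and the fibroblast-marker cell of replicate 1 named above held 15.4 CPM. WBC were spread between 378 and 14731 CPM as sums of both tissues in 6 samples, with naive WBC at 6970 CPM.

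**Figure D2:**
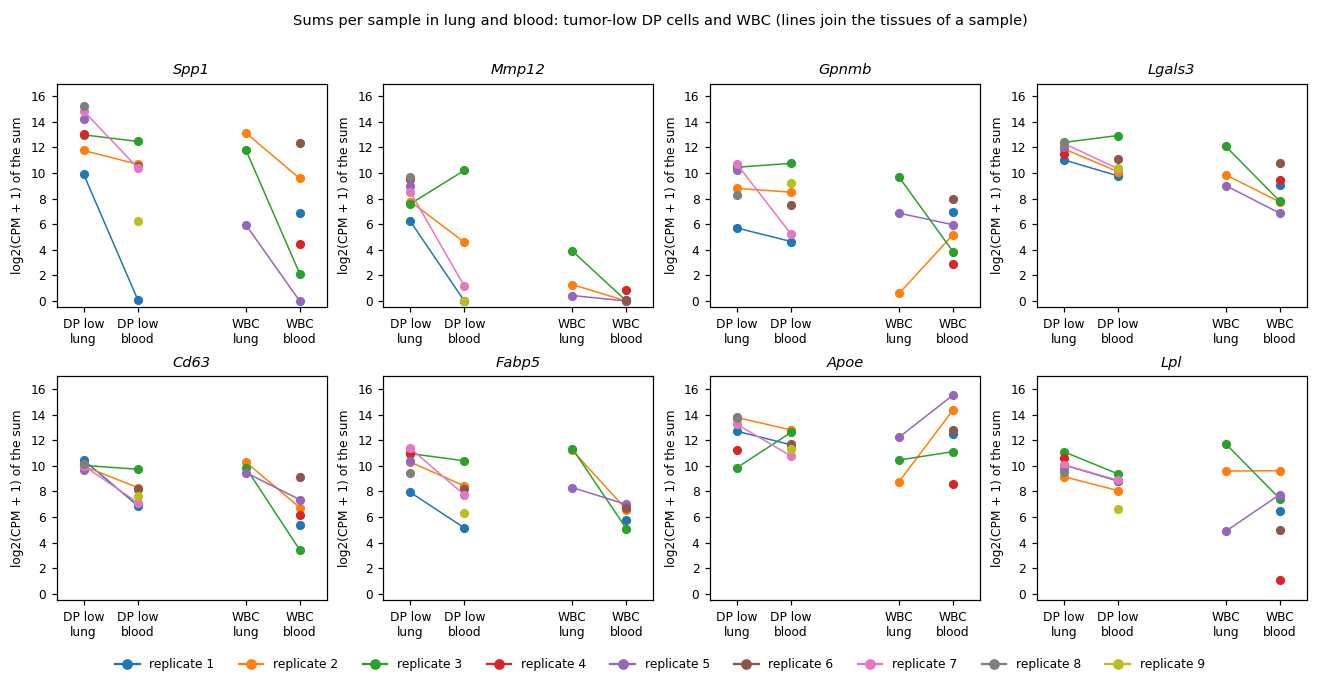
Sums per sample of the 8 genes as log2(CPM + 1) for tumor-low DP cells (DP low) and WBC, lung left of blood, with a colour for each sample and a line where a sample has both tissues. Spp1, Cd63, Fabp5 and Lpl lie higher in lung than in blood in all 4 samples with tumor-low DP cells in both, whereas Mmp12, Gpnmb and Lgals3 turn round in replicate 3, as Apoe does. In WBC, Spp1, Mmp12, Lgals3, Cd63 and Fabp5 also lie higher in lung in all 3 samples with both tissues, Apoe lies lower, and Gpnmb and Lpl are mixed.

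Levels compared between genes need a correction for length, here the joined exon length of the annotation. In tumor-low DP sums of lung the order was Spp1 (mean of 9309 CPM per kb), Apoe (4137), Lgals3 (2216), Fabp5 (408), Cd63 (292), Gpnmb (145), Lpl (111) and Mmp12 (57.3). The same order in blood began with Apoe (1898 CPM per kb), then Lgals3 (1313) and Spp1 (1040). The SDs over samples exceed the gaps between these neighbours in blood, and in lung the level of Spp1 had an SD close to its mean, so the first ranks are not separated beyond the spread between samples. In CTC, Gpnmb was first (783 CPM per kb), followed by Lgals3 (622) and Apoe (608), while Spp1 stood at 15.1 CPM per kb.

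Tumor-low DP cells of lung fell into marker sets whose sums lay apart in Apoe and Lpl. Cells with at least 4 of 10 alveolar macrophage markers at 10 CPM or more numbered 51 in lung, called alveolar-marker-high, and 1 in blood. The remaining cells with at least 4 of 12 monocyte and macrophage markers numbered 44 in lung and 69 in blood, and 5 lung and 2 blood cells had neither. In lung, 7 tumor-low DP cells had 3 or 4 alveolar markers and so lay at that threshold. Apoe had a median of 8.25 CPM in alveolar-marker-high cells, against 7703 CPM in the other macrophage-marker cells of lung. Its sums were 60.6, 204, 145 and 55.5 CPM in the 4 samples with at least 2 alveolar-marker-high cells (replicates 3, 4, 5 and 7), against 6134 to 24363 CPM in the 7 sums of other macrophage-marker cells. No sum of one set reached the range of the other.

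Lpl ran the other way. Its sums were 2496, 2126, 1813 and 2235 CPM in alveolar-marker-high cells of those 4 samples, against 78.8 to 742 CPM in the other macrophage-marker cells, again without overlap. Spp1 was higher in other macrophage-marker cells of the same samples, although their 7 lung sums, from 455 CPM upward, overlapped the alveolar-marker-high sums. Alveolar-marker-high sums held 7283, 3743, 4880 and 2312 CPM of Spp1, and other macrophage-marker sums of the same samples held 13245, 16249, 27322 and 40618 CPM. All 4 samples had this direction, and it was not tested. Lgals3, Cd63, Gpnmb and Mmp12 overlapped between the sets in lung, with mean sums of Cd63 of 1140 ± 173 CPM in alveolar-marker-high cells (SD, n = 4) and 997 ± 312 CPM in the other macrophage-marker cells (SD, n = 7). Fabp5 averaged 2050 ± 623 and 1258 ± 859 CPM and overlapped as well.

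**Figure D3:**
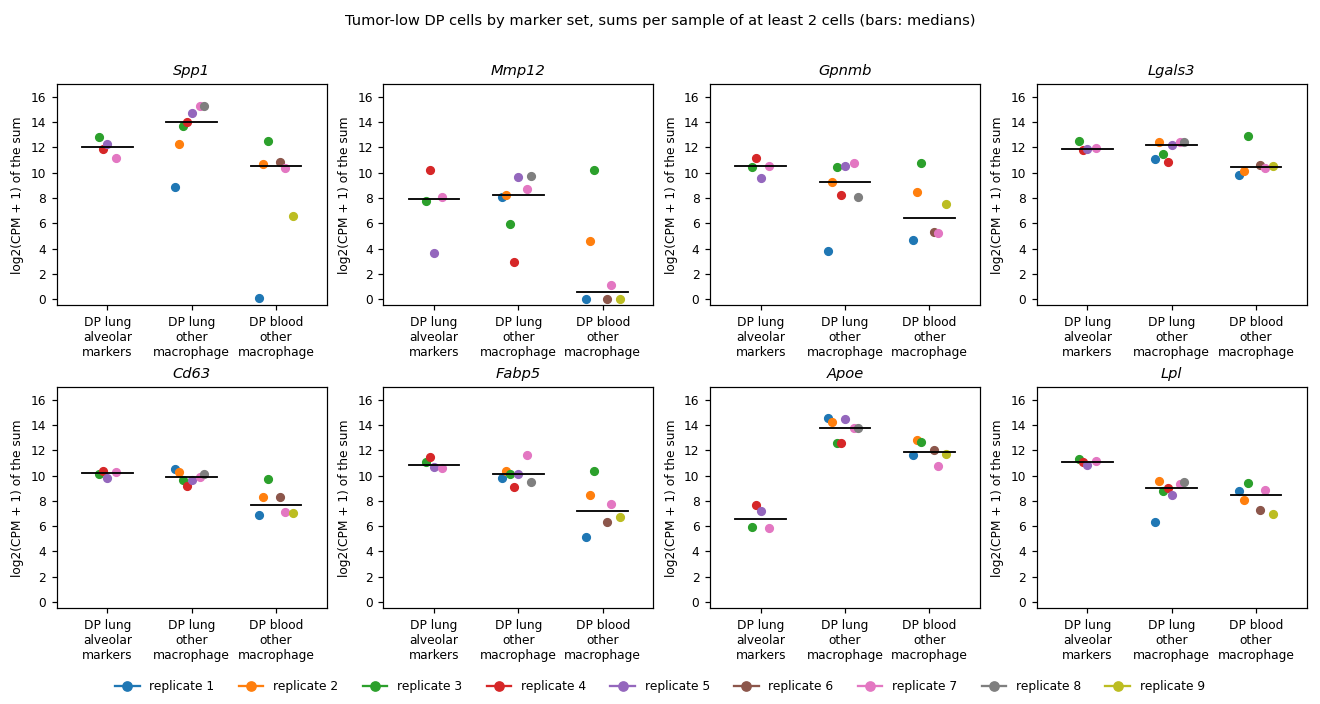
Sums per sample of the 8 genes as log2(CPM + 1) in alveolar-marker-high cells of lung (4 samples) and other macrophage-marker DP cells of lung (7 samples) and blood (6 samples), with bars at medians and a colour for each sample. Apoe is low and Lpl high in the alveolar-marker-high sums, and the other macrophage-marker sums of lung lie at 16249 CPM of Spp1 at the median, against 1503 CPM in those of blood.

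Between other macrophage-marker cells alone, lung sums held 455 to 40618 CPM of Spp1 (median 16249 CPM), against 0.0837 to 5695 CPM in blood (median 1503 CPM). Cd63 had 567 to 1501 CPM in these lung sums against 118 to 854 CPM in blood sums, and Fabp5 547 to 3119 CPM against 34.6 to 1347 CPM. Lpl was alike in range, at 78.8 to 742 CPM in lung and 126 to 666 CPM in blood. Lung sums of Apoe, 6134 to 24363 CPM, lay above 4 of the 6 blood sums, which ran between 1740 and 7192 CPM.

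Within cells, 68 of 100 tumor-low DP cells of lung had 6 or more of the 8 genes at 100 CPM or more, against 17 of 72 in blood, 1 of 43 CTC, 3 of 46 WBC and 0 of 21 naive WBC. All 8 were at 10 CPM or more in 24 lung and 4 blood cells. Over the 172 tumor-low DP cells, the Spearman correlation of Spp1 on the log2(CPM + 1) scale was 0.55 with Cd63, 0.55 with Fabp5, 0.50 with Mmp12, 0.47 with Lgals3, 0.47 with Gpnmb, 0.32 with Lpl and 0.24 with Apoe. These cells share libraries, samples and tissue, and within the 100 lung cells the same values were 0.22, 0.24, 0.29, 0.31, 0.37, 0.12 and 0.22. Among the 5201 genes with at least 10 CPM in 20% of these cells, the 10 most like Spp1 were Pdpn (0.63 over all 172 cells, 0.40 in lung and 0.39 in blood), Cd63, Fabp5, Ftl1 (0.51), Ms4a7 (0.50), Mmp12, Lhfpl2 (0.48), Lgals3, Ftl1-ps1 (0.47) and Gpnmb. Pdpn encodes podoplanin, a membrane glycoprotein, Ftl1 the ferritin light chain, of which Ftl1-ps1 is a copy, and Ms4a7 a macrophage membrane protein. Apoe ranked 212 and Lpl 103.

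Apoe and Lpl were opposed in lung, with a correlation of -0.55 over the 100 tumor-low cells, and of 0.20 over the 72 blood cells. Without alveolar-marker-high cells it was 0.08 over the remaining 49 lung cells. In those 49 cells Gpnmb and Apoe had 0.69 and Gpnmb and Lgals3 0.58. In the 278 tumor-high DP cells Gpnmb had 0.68 with Lgals3 and 0.49 with Cd63, against 0.54 and 0.55 over the 172 tumor-low cells. Spp1 and Gpnmb had 0.04 in the tumor-high cells, against 0.47 in the tumor-low ones.

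Whether lung and blood tumor-low DP cells differ was fitted on the sums with edgeR's quasi-likelihood test, with the sample as a block, which left 3 residual degrees of freedom and 4 samples with both tissues. After Benjamini-Hochberg adjustment none of the 8 genes passed 0.05, when 0.0994% of the 10062 genes tested did (10 genes, with 392 at an unadjusted p under 0.05). Fitted differences, lung minus blood, were all above 0, with a median of 2.13 on the log2 scale against 0.07 for all genes. Fabp5 differed by 2.64 ± 0.65 (log2 ± SE, edgeR adjusted p = 0.271) and Cd63 by 2.54 ± 0.69 (edgeR adjusted p = 0.355), and both were higher in lung in 4 of 4 samples, as were Lpl at 1.70 ± 0.53 and Spp1 at 3.68 ± 1.40 (edgeR adjusted p = 0.979). Mmp12 (6.06 ± 2.31), Lgals3 (1.54 ± 0.55), Gpnmb (1.72 ± 0.86) and Apoe (1.06 ± 0.74) were higher in 3 of 4. These estimates are wide: the interval of 2 SE for Spp1 ran between 0.87 and 6.49. Sums of WBC were also higher in lung for Spp1, Mmp12, Lgals3, Cd63 and Fabp5, in all 3 samples with both tissues. For Apoe they were lower in all 3, and for Gpnmb and Lpl they were mixed. Whether WBC and tumor-low DP cells differ in this was not tested.

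This comparison was unstable across tools and samples. DESeq2 called Spp1 (adjusted p = 0.0416) and Mmp12 (adjusted p = 0.000416), when it called 1417 of all 10062 genes. The edgeR fit called both without replicate 2 (65 of 10129 genes called), and Spp1 also without replicate 1 (76 of 10681). Adjusted p over the 17 alternatives ran between 1.85e-21 and 1 for Spp1 and between 0.000305 and 1 for Mmp12. Without a filter on low counts, 5 of the 8 genes were called, when 127 of all 18752 were. With at least 5 cells per sum Mmp12 and Fabp5 were called, when 111 of all 11144 genes were. Without alveolar-marker-high cells Spp1 stayed at 4.03 and Cd63 at 2.40 on the log2 scale, while Lpl was at -0.19. Other markers moved with the tissue. The 10 alveolar macrophage markers summed to 318 to 21204 CPM in lung sums against 0.352 to 4558 CPM in blood sums, where Krt79 and Cidec were at 0 and 8 of 10 had counts. The 6 B cell markers summed to 0 to 80.5 CPM in lung against 215 to 4600 CPM in blood, the 6 fibroblast markers to 0.381 to 8195 CPM against 0 to 4.66 CPM, and the 6 lung epithelium markers to 0.184 to 2365 CPM against 0 to 51.7 CPM. Their part in the differences of the 8 genes was not tested.

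Sorted classes as a whole were compared next, in one fit over 14 DP, 7 CTC and 9 WBC sums with tissue and sample as terms. As sums of both tissues, Gpnmb held 1548 to 5821 CPM in DP (median 3872 CPM, 9 samples) against 3.79 to 354 CPM in WBC (median 113 CPM, 6 samples), without overlap. Gpnmb was higher in DP than in WBC by 4.25 ± 0.89 (log2 ± SE, edgeR adjusted p = 0.00217, higher in 6 of 6 samples). Mmp12 was higher by 5.10 ± 1.56 (edgeR adjusted p = 0.0223, 5 of 6 samples), with 0.00354 to 740 CPM in DP sums against 0.0464 to 5.91 CPM in WBC sums, which overlap because replicates 6 and 9 of DP were near 0. Those 2 of the 8 genes passed, when 20.5% of 12595 genes did, 17.6% higher and 2.91% lower. Mmp12 was lost without replicate 2, 3 or 5 and in lung alone, and both were lost in lung alone and with at least 5 cells per sum. Cd63 (1.18 ± 0.51), Fabp5, Lgals3 and Spp1 (1.31 ± 1.49) missed the threshold, as did Apoe (-1.88 ± 0.86) and Lpl (-2.63 ± 1.22). In blood alone Apoe (-3.54 ± 0.59) and Lpl (-4.25 ± 0.99) were called lower and Cd63 (2.64 ± 0.81) and Fabp5 (1.80 ± 0.44) higher. Of all 12375 genes tested there, 569 were lower and 2504 higher. With no replicate block Apoe (-2.84 ± 0.82) and Lpl (-2.71 ± 0.87) were called lower, when 838 of all 12595 genes were. DESeq2 (-3.05, 1101 of 12595 genes lower) and the fit without replicate 7 (-3.08, 470 of 12314 lower) called Lpl lower as well. Limma on cells weighted equally called Lgals3 (1.34), Cd63 (2.26) and Fabp5 (1.56) higher, when it called 5259 of all 12595 genes higher. The 12 melanocyte genes, all higher in DP than in WBC, moved with this comparison.

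Against CTC, DP sums were higher in Lpl by 8.98 ± 1.42 (edgeR adjusted p = 0.000171), in Mmp12 by 9.86 ± 2.01 (edgeR adjusted p = 0.00274) and in Spp1 by 6.62 ± 1.95 (edgeR adjusted p = 0.0411), each in 5 of 5 samples. Per sample, Spp1 held 66.4 to 8308 CPM in DP (median 1341 CPM, 9 samples) against 25.6, 59.3, 2.03, 7.14 and 30.7 CPM in CTC, without overlap. Lpl held 19.1 to 1541 CPM in DP sums, all above the CTC sums. All 12 macrophage markers were higher in DP as well, and their part in these 3 differences was not tested. So 3 of the 8 genes passed, when 5.85% of 12595 genes did, all of them higher in DP. The other 5 differed by -0.27 to 1.44 on the log2 scale. Spp1 was lost without replicate 3, 4 or 5, in either tissue alone, with at least 5 cells per sum and with no replicate block, and Mmp12 without replicate 3, in lung alone and with at least 5 cells per sum, whereas Lpl passed under all 17 alternatives.

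CTC were set against WBC in the same fit. Gpnmb was higher in CTC by 4.52 ± 0.90 (edgeR adjusted p = 0.000542, 5 of 5 samples). Lpl (-11.62 ± 1.56, edgeR adjusted p = 6.72e-06), Spp1 (-5.31 ± 1.61, edgeR adjusted p = 0.0154) and Apoe (-3.32 ± 0.86, edgeR adjusted p = 0.00535) were lower in CTC, each in 5 of 5 samples. So 4 of the 8 genes passed, when 26.6% of 12595 genes did, 16% higher and 10.6% lower. Cd63 was higher in 5 of 5 samples without passing (1.33 ± 0.56, edgeR adjusted p = 0.0826), and Mmp12 (-4.76 ± 1.93) did not pass either. Lgals3 and Fabp5 differed by -0.25 ± 0.51 and -0.09 ± 0.65. Spp1 was lost without replicate 3, Gpnmb, Spp1 and Apoe in lung alone, Spp1 also in blood alone, and Spp1 and Apoe with at least 5 cells per sum. DESeq2 did not call Apoe. In blood alone Fabp5 was called higher in CTC (1.67), as was Cd63, when 1931 of all 12375 genes were. Limma on cells weighted equally called Cd63 higher too, when it called 5417 of all 12595 genes higher. Mmp12 was called lower by DESeq2 (2081 of 12595 genes lower) and by the edgeR fits with no replicate block (1812 of 12595) and without replicate 5 (949 of 12791).

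Tumor-low DP cells were then set against WBC, both being host-like by score. In a fit over the 4 sets Mmp12 was higher in tumor-low DP by 8.21 ± 1.55 (edgeR adjusted p = 0.0204, 5 of 6 samples), the 1 gene of the 8 that passed, when 0.366% of 12573 genes did, 0.342% higher and 0.0239% lower. It was lost in blood or lung alone, with at least 5 cells per sum, without alveolar-marker-high cells and without replicate 2, 3 or 5. Lgals3 was higher in 6 of 6 samples (1.36 ± 0.59, edgeR adjusted p = 0.307), Gpnmb in 4 of 6 (1.99 ± 0.92) and Spp1 in 4 of 6 (2.82 ± 1.56, edgeR adjusted p = 0.465). Apoe differed by -0.29 ± 0.69, Cd63 by 0.52 ± 0.51, Fabp5 by 0.55 ± 0.68 and Lpl by 0.97 ± 1.18. Limma on cells weighted equally called Lpl higher, when it called 308 of all 12573 genes higher. WBC differ in makeup from tumor-low DP cells: 27 of 46 were other macrophage-marker cells, 3 were alveolar-marker-high and 14 had neither set. Neutrophil markers summed to 1.65 to 177 CPM in tumor-low DP sums of lung and 10.0 to 479 CPM in those of blood, against 15.9 to 9491 CPM in WBC of the 6 samples, and the part of this in the comparison was not tested.

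Tumor-high DP cells against CTC gave no call among the 8 genes (edgeR's quasi-likelihood test), when 0.931% of 12573 genes passed and 846 had an unadjusted p under 0.05. Gpnmb differed by -0.07 ± 0.87, Cd63 by -0.13 ± 0.53, Lgals3 by -0.16 ± 0.62 and Apoe by 0.55 ± 0.65, and intervals of 2 SE ran between -1.82 and 1.67 for Gpnmb and between -1.19 and 0.93 for Cd63. Lpl was the higher by 3.77 ± 1.18 in 4 of 5 samples (edgeR adjusted p = 0.128), and DESeq2 called it (adjusted p = 0.00183, the lowest over 18 alternatives, whose highest was 1). DESeq2 called 786 of all 12573 genes higher. Tumor-high DP sums held 0.186 to 179 CPM of Lpl in lung, against 0.0202 to 0.712 CPM in blood. Those of lung include the fibroblast-marker sums of replicates 1 and 2, whose part in this fit was not tested. Spp1 differed by 2.76 ± 1.60, and by 1.23 without the cells near the cut, among them the fibroblast-marker cell of replicate 1 named above. Macrophage markers moved with it: 5 of 12 were called higher in tumor-high DP, with sums of 94.6 to 605 CPM in lung and 9.35 to 318 CPM in blood, against 60.5 and 28.1 CPM in the 2 CTC sums of lung and 3.85 to 19.4 CPM in the 5 of blood. Their part in Lpl and Spp1 was not tested.

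**Figure D4:**
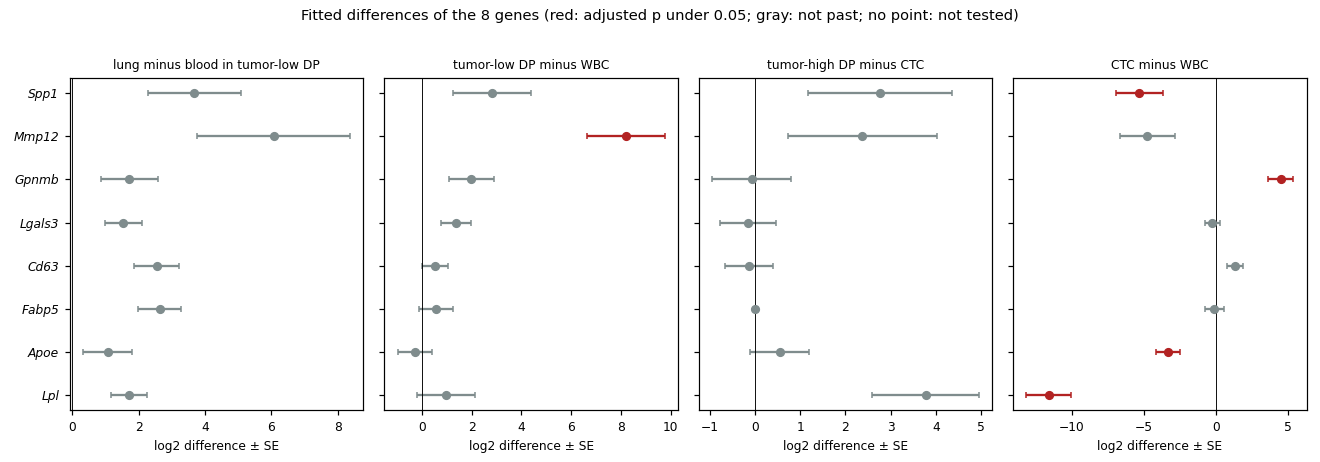
Fitted differences of the 8 genes on the log2 scale with bars of 1 SE, in 4 comparisons, the first-named group minus the other, red where the edgeR adjusted p is under 0.05. All 8 points lie above 0 for lung minus blood without a call, Mmp12 alone is called for tumor-low DP minus WBC, none is called for tumor-high DP minus CTC, and Gpnmb, Spp1, Apoe and Lpl are called for CTC minus WBC; Fabp5 has no bar in the third panel because its difference was too near 0 to give one.

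WBC of tumor-bearing mice were compared with naive WBC, a single sample. Spp1 held 118, 8321, 1553, 20.6, 47.7 and 5345 CPM in WBC of replicates 1 to 6, whereas the 21 naive WBC had no count of it among 26.6 Mcounts. With a floor of 3 counts over the naive sample (0.113 CPM), Spp1 was at least 183-fold higher in the lowest of these WBC sums, which join lung and blood. The bound does not hold for blood alone, where WBC held 118, 764, 3.41, 20.6, 0 and 5345 CPM in the same replicates, so the 4 blood WBC of replicate 5 had no count either. The quasi-likelihood test of edgeR did not call it (adjusted p = 0.135) and DESeq2 did (adjusted p = 9.09e-09, the lowest of 14 alternatives, whose highest was 0.161). Restricted to other macrophage-marker cells, 10 of 19 WBC of blood had at least 10 CPM of Spp1, against 0 of 9 naive WBC, which allows a share of up to 33.3% by the limit of 3 counts. Because the naive group is 1 sample, only the sizes of the other differences are given, and no call is read as a trait of the 8 genes. Cd63 was 3.16 ± 1.32 higher on the log2 scale and Fabp5 4.12 ± 2.02, while Apoe differed by -0.16 ± 1.05 and Lpl by 0.56 ± 2.45. Blood and lung WBC were joined here and the labels give naive WBC no tissue, so tissue and tumor cannot be told apart.

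CTC against cultured B16F10 cells, again 1 sample, gave no call among the 8 genes either, when 0.0365% of 16423 genes passed in edgeR (571 at an unadjusted p under 0.05). Gpnmb was 11401 CPM in B16F10, above all 5 CTC sums, and differed by -1.07 ± 1.09. Fabp5 held 286, 670, 276, 166 and 351 CPM in CTC sums, all above 111 CPM in B16F10 (1.72 ± 1.70). Apoe (-0.13 ± 1.07) and Cd63 (-0.14 ± 1.03) lay within 2 SE of 0, in intervals of -2.28 to 2.02 and -2.20 to 1.92 on the log2 scale.

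Of 20 other genes of lipid-associated macrophages, 19 were tested between classes. In DP against CTC 10 were higher and none lower, when 5.85% of all genes were higher. The list median was 6.00 on the log2 scale, against 0.21 over all genes, and Itgax (12.49 ± 1.92) and Igf1 (10.58 ± 2.31) were among the 10. In CTC against WBC 15 of 19 were lower, when 10.6% of all genes were, such as Tyrobp, the adaptor of TREM2, by -12.55 ± 1.10. In DP against WBC 6 were lower, when 2.91% of all genes were, with Tyrobp at -3.59 ± 0.77 and Cd68 at -2.72 ± 0.87. In tumor-high DP against CTC 3 were higher, when 0.931% of all genes were called. They were Acp5 (5.73 ± 1.27), Tyrobp (4.82 ± 0.75) and Cd36 (3.95 ± 1.01), a phosphatase, an adaptor and a fatty acid receptor (edgeR adjusted p = 0.0141, 0.000251 and 0.0416). In tumor-low DP against WBC and in lung against blood none passed, with list medians of 0.90 and 1.43. The median of Trem2, the lipid receptor that gives these cells one of their names, was 114 CPM in tumor-low DP cells of lung, 15.95 CPM in those of blood, 0.321 CPM in WBC and 0 in CTC. Arg1, an arginase, had medians of 6.06 CPM in tumor-low DP cells of lung and 3324 CPM in those of blood.

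Partners of the 8 genes were read from lists of their own. Over all genes, 5.85% were called in DP against CTC, 20.5% in DP against WBC and 26.6% in CTC against WBC. Of 8 osteopontin receptors none was called in DP against CTC, 1 was lower in DP against WBC (Itgb1, -1.10 ± 0.35) and 2 were lower in CTC against WBC (Itga4, -3.95 ± 1.13, and Itgb1, -1.46 ± 0.37). Counted in either direction, the receptors called were not above these shares. Cd44, the hyaluronan and osteopontin receptor, had medians of 1153 CPM in tumor-low DP cells of lung, 952 CPM in those of blood, 1106 CPM in CTC and 522 CPM in WBC. Among 12 tested lipoprotein and lipase partners, Apoc2 (10.27 ± 1.98), the activator of Lpl, and the exporter Abcg1 (9.10 ± 1.69) were higher in DP than in CTC, and 4 were lower in CTC than in WBC. Of the 3 tissue inhibitors of metalloproteinases, Timp3 was higher in DP than in WBC (5.39 ± 1.73) and in CTC than in WBC (5.61 ± 1.94), where Timp2 was lower (-2.53 ± 0.62). Of the 4 MiT/TFE factors, regulators of lysosomal and pigment genes, Tfeb was higher in DP than in WBC (3.97 ± 1.10) and Tfec higher in DP than in CTC (10.02 ± 2.66). In CTC against WBC Tfeb was higher (3.74 ± 1.16) and Tfec lower (-10.99 ± 2.65). No gene of these partner lists was called in tumor-low DP against WBC, tumor-high DP against CTC or lung against blood.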

How the data were processed

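Gene counts of single cells were deposited by the authors as one table of whole-number counts, and per the submitters' processing notes mm10, Trim Galore, HISAT2, SAMtools and featureCounts were used, with no versions and no rule for multi-mapping reads given in the sources used here. Values of 2 outnumbered values of 1 by 3.59 to 1 and 56.7% of values were even, so sampling error of single counts is uncertain. Depth was 0.0205 to 104 Mcounts per cell (1000000 counts each), with a median of 15.8 Mcounts. Intervals cover counting error only.

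Counts were scaled to CPM per cell and sums were formed for each class within a tissue of a sample where 2 or more cells were present. Tests were edgeR 4.0.16 quasi-likelihood fits on these sums (TMM, filterByExpr, tissue as a term and the sample as a block, except against controls, where sums joined both tissues), with Benjamini-Hochberg adjustment over all genes tested and a threshold of 0.05. Alternatives used DESeq2 1.42.0 and limma 3.58.1 in R 4.3.3. Positions follow GENCODE vM21 on GRCm38. The block pairs sums of one sample: deviations of sums from their group means correlated with a median of 0.0381 over 41 same-sample pairs and -0.00422 over 246 other pairs. The fits were also run on counts simulated without sample or tissue effects, so that run does not show how they perform on these sums. No 2 of the 648 cells had identical counts. Members, score, marker sets, lists and tests were chosen with earlier results of these data known. Genes named beside the 8 are up to 4 called genes of each list with the largest difference, and the 10 most like Spp1. Trem2, Arg1 and Cd44 were named after their values were seen, and Krt79 and Cidec as list markers at 0.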

Additional observations from a re-analysis of the deposited data

Results flagged for a closer look

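By a rule whose rate of about 1 in 20 holds for normally spread, separate values, 48 groups of 4 to 10 sums were checked (8 genes in 6 sets). CPM sums are skewed and the genes share sums, so that rate does not apply here. A sum that stood far from the others was found in 16 groups. Of these, 6 were the tumor-low DP sum of blood replicate 3, which holds 2 cells: 5695 CPM of Spp1, 1185 CPM of Mmp12, 1738 CPM of Gpnmb, 7828 CPM of Lgals3, 854 CPM of Cd63 and 1347 CPM of Fabp5, each above the other 5 blood sums. In tumor-high DP sums of lung, replicate 1 stood out with 1755 CPM of Spp1, and replicate 3 with 1.32 CPM of Mmp12 and 8465 CPM of Apoe, each of 2 cells. A tumor-high DP sum of blood, replicate 2, had 0.636 CPM of Mmp12. Among CTC of blood, replicate 2 had 685 CPM of Fabp5. Among WBC of blood, replicate 6 had 5345 CPM of Spp1, 1791 CPM of Lgals3 and 575 CPM of Cd63, replicate 4 had 0.787 CPM of Mmp12, and replicate 2 had 789 CPM of Lpl.

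The direction of lung minus blood differed between classes for Fabp5 and Apoe, with every sample of a class moving one way. Fabp5 was higher in lung by a mean of 1052 CPM in tumor-low DP cells (4 samples) and by 1683 CPM in WBC (3 samples), and the mean difference was -158 CPM in CTC (2 samples). The mean difference of Apoe was 414 CPM in CTC (2 samples) and -21472 CPM in WBC (3 samples). Whether these classes differ was not tested.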

How the results depend on the processing

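Counts of genes called depended on tool, cell minimum and tissue. In the order DP against WBC, DP against CTC, CTC against WBC, tumor-low DP against WBC, tumor-high DP against CTC, lung against blood in tumor-low DP, WBC against naive WBC and CTC against B16F10, edgeR called 2586, 737, 3348, 46, 117, 10, 253 and 6 genes. In the same order DESeq2 called 5283, 1469, 5829, 2108, 790, 1417, 3259 and 527, sums of at least 5 cells gave 294, 160, 1281, 22, 27, 111, 431 and 3, and limma on cells weighted equally gave 5563, 262, 6354, 329, 18, 19, 472 and 168. Leaving out 1 replicate at a time gave 1599 to 2580, 361 to 725, 2387 to 3343, 0 to 114, 27 to 117, 4 to 76, 200 to 414 and 1 to 8. Lung alone gave 0, 80, 101, 0 and 0 in the first 5, and blood alone 336 in DP against CTC, 8 in tumor-low DP against WBC and 72 in tumor-high DP against CTC. With no filter on low counts there were 186 in tumor-high DP against CTC and 127 in lung against blood, and RLE size factors gave 38 in lung against blood. Without cells near the score cut there were 70 in tumor-low DP against WBC and 38 in lung against blood, and without alveolar-marker-high cells 2 in tumor-low DP against WBC. With no replicate block, which gives up the pairing of sums within a sample, there were 404 in tumor-low DP against WBC, 240 in tumor-high DP against CTC and 18 in lung against blood. No paired analysis was possible against controls because no sample is in both groups. The cause of these shifts was not tested. RLE moved the median of all genes to -0.20 in lung against blood, where TMM gave 0.07, and to 0.95 in DP against WBC, where TMM gave 1.17, and turned no difference of the 8 genes round.

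Of the log2 differences of single genes, 1372 kept direction and side of the threshold, 132 lost a call, 35 gained one, 58, all of the 8 genes, turned in sign with no call before or after, and 2 turned in sign with a call: Cd68 in DP against WBC (0.24 in lung alone) and Fabp5 in CTC against WBC (1.67 in blood alone). Direction was kept least often in tumor-high DP against CTC, where Fabp5 kept it in 9, Gpnmb in 11, Cd63 in 12 and Lgals3 in 15 of 18 alternatives, and in CTC against WBC, where Fabp5 kept it in 11 and Lgals3 in 12 of 17. In DP against WBC Spp1, Lgals3, Fabp5 and Lpl kept it in 15 of 17, with Spp1 between -2.06 and 3.12. Lung against blood in tumor-low DP cells rests on 4 samples, and the sums of 2 or 3 cells among them are of blood. Replicates 1, 2, 3 and 7 had 3, 10, 2 and 35 cells in blood, against 5, 12, 32 and 13 in lung.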
